A study of Mus musculus with 4 samples.

Results

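The genes described here encode 10 cell-surface adhesion molecules of the nervous system that are built from immunoglobulin domains and fibronectin type III repeats: Ncam1 and Ncam2, the L1 family (L1cam, Nrcam, Chl1, Nfasc) and the contactins Cntn1, Cntn2, Cntn4 and Cntn6. They were chosen by gene symbol, with earlier results of these data known. The shares of calls in this set and in the lists below are therefore descriptive, not independent evidence. All 10 were measured among 22180 genes, each through a probe set that names that gene alone. RNA came from 4 arrays of whole aggregates in retinal differentiation culture with matrigel, 2 from day 4 and 2 from day 7. Every aggregate was wild type and grown from the same mouse embryonic stem cell line, an EB5 derivative of 129/Ola origin with GFP knocked in at the eye field gene Rax (Rx), so this knock-in is shared by both days. The line is the only one studied, no sorting for GFP is given in the labels, and whether replicates were separate cultures is not given there either, so the tests measure the spread between these arrays, which may be technical. In such bulk samples a change in the share of a cell type and a change in RNA per cell cannot be told apart.

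These molecules hold growing axons and neural cells together and pass signals inward. Ncam1 and Ncam2 bind their own kind on facing cells, and Ncam1 carries polysialic acid in the developing brain, a long sugar chain that loosens contact. L1 family proteins cross the membrane and are anchored by ankyrins to the spectrin skeleton, while contactins have no part inside the cell, are held by a lipid anchor and work with partners such as Caspr proteins and receptor tyrosine phosphatases. In the retina and brain the family is best known from axon bundling, axon guidance and the sorting of domains on myelinated axons.

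The windows before the annotated start sites of the members with the largest differences are shown because they belong to the genes that the results turn on. They are from RefSeq (GRCm38.p6), and the table used here matched 9 of the 10 members, with no entry for Ncam1. Each holds the 250 bases up to the start site, 5′ to 3′ on the gene's strand, and for genes with several starts in the table the most upstream of these is given. The RefSeq gene models of all 3 genes shown begin further upstream, so these are not the first starts of the genes. The model of Cntn1 begins at 92051152, inside its printed window. The capitals mark matches to 6 motifs that were searched on both strands: the TATA box (TATAAA), the CAAT box (CCAAT), the GC box (GGGCGG), an E-box (CAGCTG), a core bound by Sox factors (ACAAAG) and a core bound by homeodomain factors (TAATTA). Cntn6 lies at chr6:104492794-104493043 (plus strand), Cntn1 at chr15:92050915-92051164 (plus strand) and Nfasc at chr1:132707327-132707576 (minus strand).
Cntn6: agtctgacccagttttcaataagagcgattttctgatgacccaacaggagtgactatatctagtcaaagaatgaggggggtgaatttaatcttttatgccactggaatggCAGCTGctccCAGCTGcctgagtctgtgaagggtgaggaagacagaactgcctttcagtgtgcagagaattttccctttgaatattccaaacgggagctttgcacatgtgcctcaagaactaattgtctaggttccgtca
Cntn1: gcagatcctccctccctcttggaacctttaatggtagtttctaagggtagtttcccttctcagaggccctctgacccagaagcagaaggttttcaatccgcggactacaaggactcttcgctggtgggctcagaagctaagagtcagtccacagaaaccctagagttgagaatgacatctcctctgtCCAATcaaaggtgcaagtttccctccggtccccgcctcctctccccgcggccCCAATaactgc
Nfasc: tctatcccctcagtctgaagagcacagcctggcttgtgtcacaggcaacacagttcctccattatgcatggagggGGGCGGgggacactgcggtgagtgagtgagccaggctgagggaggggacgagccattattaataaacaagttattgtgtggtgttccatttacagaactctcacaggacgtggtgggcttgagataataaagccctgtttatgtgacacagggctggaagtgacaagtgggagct
The Cntn6 window held CAGCTG, a core that basic helix-loop-helix factors can bind, 2 times, at 140 and 130 bases before the start. Of 32851 RefSeq windows of this length 13% held this motif at least once and 1.26% at least 2 times. The Cntn1 window held CCAAT 2 times and the Nfasc window GGGCGG 1 time, and no matches overlapped. These motifs were found at least 1 time, on either strand, in 33.8% and 32.7% of all windows. The share with CCAAT 2 times was not computed. Whether a probe set reads transcripts from these starts was not tested, and a match is a run of letters, not a shown binding site.

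Between day 4 and day 7, Cntn6, Cntn1 and Ncam1 rose, Nfasc fell, and the other 6 genes were not called. Cntn6 was 6.62-fold higher at day 7, Cntn1 2.55-fold and Ncam1 1.67-fold, and Nfasc was 2.51-fold lower. A call here means an adjusted p under 0.05 in a limma fit over all 22180 genes, and 4 of the 10 members passed where 10.5% of all genes did (6.15% higher, 4.33% lower). The median difference over the 10 members was 0.32 log2, against -0.0036 over all genes, and a difference of 1 log2 is 2-fold. For 9 of the 10 the arrays of the days did not overlap, which was also so for 50.8% of all genes. The background itself moved with single arrays: of all genes 2324 were called, but 887 when day 7 replicate 1 was left out and 994 when replicate 2 was.

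**Figure D1:**
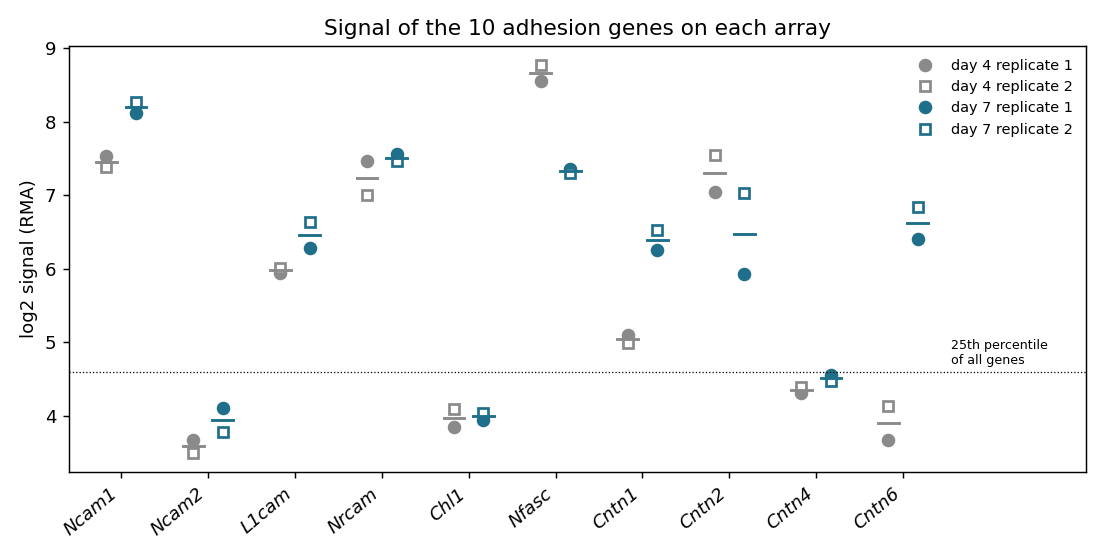
Normalized log2 signal of each of the 10 adhesion genes on the 4 arrays (grey, day 4; blue, day 7; filled circles, replicate 1; open squares, replicate 2; short bars, mean of the day), with a dotted line at 4.60, the 25th percentile of the mean signal of all genes. Cntn6 passes from below the line to above 6, Nfasc drops below 7.4, and both days of Ncam2, Chl1 and Cntn4 lie under the line; heights of different genes come from different probes and are not comparable.

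The contactins held the largest difference of the members, that of Cntn6. Of the 4, 2 were called higher and 2 were not called, where 6.15% of all genes were called higher. Cntn6 (probe set 17461240), a contactin of the cerebellum and sensory pathways that binds Notch receptors and the phosphatase Ptprg, read 3.67 and 4.13 at day 4 and 6.41 and 6.84 at day 7. The lower day 7 array stood 2.28 log2 above the higher day 4 array. The difference was 2.73 log2 (SE 0.216, 3.90 ± 0.33 against 6.63 ± 0.30, SD, n = 2 per day, adjusted p = 0.000579), with a 95% interval of 4.65-fold to 9.43-fold. Only 76 of 22180 genes had a larger rise. Since the day 4 mean lay under 4.60, the 25th percentile of all gene means, where background makes up more of the signal, the true ratio may be larger than this fold.

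Cntn1 (probe set 17314387), the contactin that partners Caspr at the junctions beside nodes of Ranvier and binds the phosphatase Ptprz1, read 5.09 and 4.98 at day 4 and 6.25 and 6.52 at day 7. Both day 7 arrays were higher than both day 4 arrays by at least 1.16 log2, so the groups did not overlap. The rise was 1.35 log2 (SE 0.156, 5.04 ± 0.08 against 6.39 ± 0.19, SD, n = 2 per day, adjusted p = 0.00238). Cntn1 and Cntn6 kept their calls whichever array was left out, with differences of 1.22 to 1.48 and 2.49 to 2.96 log2.

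Cntn2 (probe set 17226891), also called TAG-1, a contactin of early outgrowing axons, went the other way without a call. It read 7.05 and 7.54 at day 4 and 5.92 and 7.02 at day 7, so the days came within 0.025 log2 of each other and the day 7 arrays lay 1.10 log2 apart. Only 43 genes (0.194%) had a larger gap between the day 7 arrays. The difference was -0.82 log2 (SE 0.349, adjusted p = 0.217), and it was -1.37 without day 7 replicate 2 (adjusted p = 0.0443) and -0.27 without day 7 replicate 1 (adjusted p = 0.752). Which of the day 7 arrays represents that day cannot be told from 2.

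Cntn4 (probe set 17461271), a contactin of olfactory and visual axons, read 4.31 and 4.39 at day 4 and 4.55 and 4.47 at day 7. All 4 values lay under the 25th percentile of gene means. The difference of 0.16 log2 was not called (adjusted p = 0.594), and its 95% interval reached from 0.891-fold to 1.40-fold. This bounds the signal of the probe set, and background at such a level may make a change in RNA look smaller.

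In the L1 family, Nfasc fell and the other 3 genes were not called. Nfasc (probe set 17226916) encodes neurofascin, whose isoforms organise nodes of Ranvier and axon initial segments with ankyrin G, and it read 8.55 and 8.77 at day 4 and 7.36 and 7.31 at day 7. The days were separated by 1.20 log2 at their nearest, and the replicates lay 0.21 apart at day 4 and 0.05 apart at day 7. The difference was -1.33 log2 (SE 0.148, 8.66 ± 0.15 against 7.33 ± 0.04, SD, n = 2 per day, adjusted p = 0.00205), a fold of 1.97 to 3.20 lower over the 95% interval. It stayed called whichever array was left out, at -1.44 to -1.22 log2, and 260 genes had a larger fall.

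L1cam (probe set 17542419), the founding member of the family and a guide of retinal ganglion cell axons, read 5.94 and 6.02 at day 4 and 6.28 and 6.64 at day 7. Both day 7 arrays were above both of day 4, but the difference of 0.48 log2 did not pass (SE 0.167, adjusted p = 0.134), and the interval ran from 1.06-fold to 1.84-fold. Nrcam (probe set 17275255), which gathers sodium channels at nodes and steers axons at the optic chiasm, read 7.46 and 7.00 at day 4 and 7.56 and 7.46 at day 7. Day 4 replicate 1 thus lay at the day 7 level, and the difference of 0.28 log2 was not called (adjusted p = 0.455).

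Chl1 (probe set 17461205), the close homologue of L1, was the member with the smallest difference. Its values were 3.84 and 4.09 at day 4 and 3.95 and 4.04 at day 7, the only case in which the days overlapped. The difference was 0.029 log2 (adjusted p = 0.954), and it turned negative without day 4 replicate 1 or without day 7 replicate 2. The interval of 0.795-fold to 1.31-fold bounds only the signal of this dim probe set, where background may hide part of a change in RNA.

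Of the NCAM pair only Ncam1 was called. Ncam1 (probe set 17526776), the neural cell adhesion molecule that marks the neural plate from its formation, read 7.54 and 7.38 at day 4 and 8.12 and 8.27 at day 7. The lowest day 7 array was 0.59 log2 above the highest of day 4. The rise was 0.74 log2 (SE 0.147, 7.46 ± 0.11 against 8.19 ± 0.10, SD, n = 2 per day, adjusted p = 0.021). The call was lost without day 4 replicate 2 (adjusted p = 0.0534), without day 7 replicate 1 (0.107) and without day 7 replicate 2 (0.163), while the size stayed between 0.66 and 0.82 log2. Ncam2 (probe set 17326756), the relative expressed on olfactory axons, read 3.67 and 3.50 at day 4 and 4.10 and 3.78 at day 7, under the 25th percentile throughout. Its difference of 0.36 log2 was not called (adjusted p = 0.269).

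**Figure D2:**
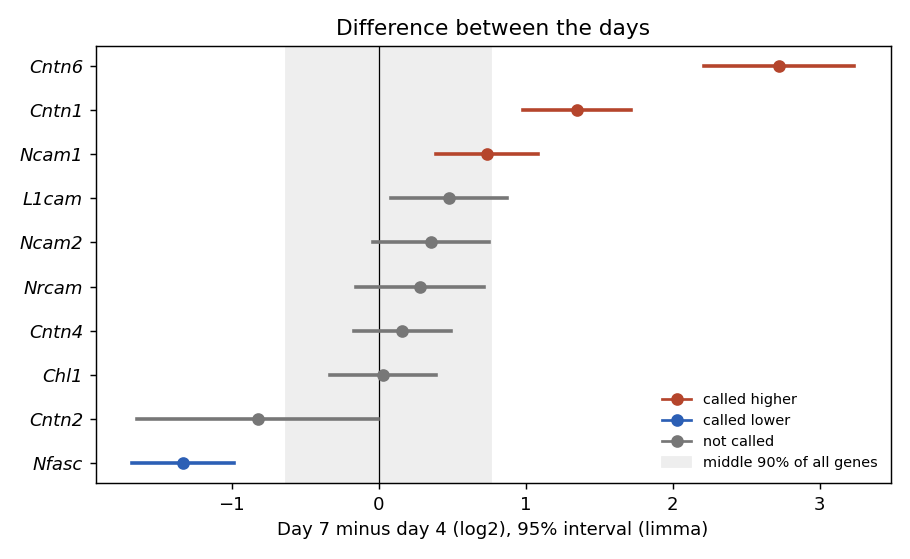
Day 7 minus day 4 difference in log2 signal of each adhesion gene, with its 95% interval from limma (red, called higher; blue, called lower; grey, not called); the grey band, from -0.63 to 0.77, holds the middle 90% of all genes. The whole intervals of Cntn6, Cntn1 and Nfasc lie outside the band, while the estimate of Ncam1 (0.74) lies inside it.

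Some members lie side by side in the genome, and their calls are given here beside the 10.5% of all genes called. In the RefSeq gene order, Cntn3, Chl1, Cntn6 and Cntn4 follow each other on chromosome 6 with no other protein-coding gene between them. Of these 4 neighbours Cntn6 alone was called, and Cntn3, a contactin outside the member list, stood at 5.13 and 5.24 at day 4 and 4.72 and 5.17 at day 7 (difference -0.24 log2, adjusted p = 0.538). Cntn2 and Nfasc are direct neighbours on chromosome 1, and both had negative differences (-0.82 and -1.33 log2), of which that of Nfasc passed. With the replicate number as a block Cntn2 was called too (adjusted p = 0.0361).

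Genes that act with these molecules were counted in a list of which 38 were analysed here. Of the 38, 9 rose, 1 fell and 28 were not called, which is 26.3% called against 10.5% of all genes, and the median difference was -0.01 log2. Without day 7 replicate 1 the count of calls was 6. The largest rise was that of Ptprz1, a receptor tyrosine phosphatase of neural progenitors whose outer part binds Cntn1. It read 6.84 and 6.75 at day 4 and 9.41 and 8.82 at day 7, a difference of 2.32 log2 (SE 0.209, adjusted p = 0.000937). Ptprg, a related phosphatase that binds other contactins, Cntn6 among them, stood at 8.82 and 8.83 at day 4 and at 8.71 and 8.88 at day 7 (difference -0.031 log2, adjusted p = 0.947).

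The enzymes that build polysialic acid on Ncam1 rose. St8sia2, the main polysialyltransferase of the embryo, read 6.53 and 6.26 at day 4 and 7.66 and 7.60 at day 7 (difference 1.24 log2, SE 0.154, adjusted p = 0.00312). St8sia4, the other polysialyltransferase, read 4.74 and 5.46 at day 4 and 6.77 and 6.19 at day 7 (difference 1.37 log2, adjusted p = 0.0234, and 0.0502 without day 4 replicate 1 and 0.158 without day 7 replicate 1). St8sia3, a sialyltransferase of the same family that is not known as a main maker of the chain on Ncam1, fell from 7.36 and 7.61 to 6.25 and 6.17 (difference -1.27 log2, adjusted p = 0.00278). With all 4 arrays the 3 genes passed, 2 higher and 1 lower, where 6.15% of all genes were called higher and 4.33% lower.

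**Figure D3:**
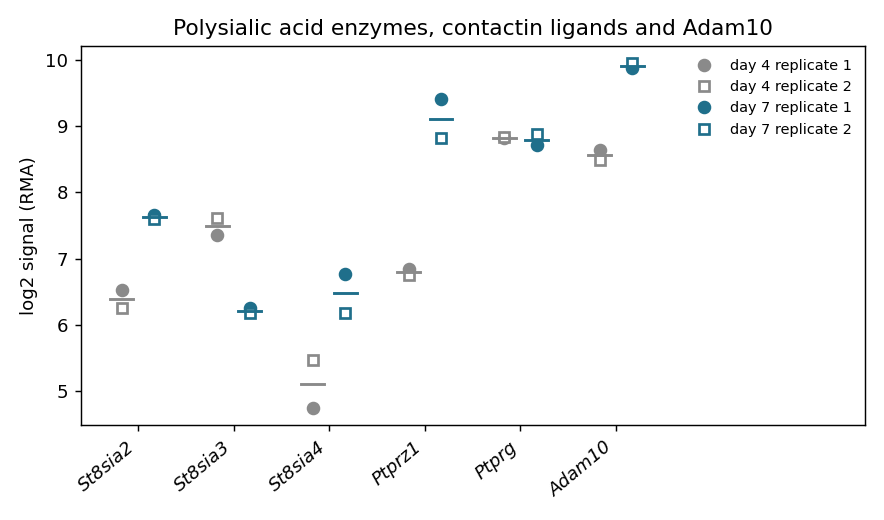
Normalized log2 signal on the 4 arrays of 3 sialyltransferase genes, the contactin-binding phosphatase genes Ptprz1 and Ptprg, and the protease gene Adam10 (symbols as in the plot of the adhesion genes). St8sia2, St8sia4, Ptprz1 and Adam10 stand higher at day 7, St8sia3 stands lower, and the days of Ptprg overlap.

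Of the genes for shedding proteases, which cut adhesion molecules such as L1 from the surface, Adam10 rose by 1.35 log2, from 8.63 and 8.48 to 9.87 and 9.95 (adjusted p = 0.00165). Adam17 and Bace1 were not called (differences -0.04 and 0.49 log2). Among ligands and co-receptors 5 of 11 rose, where 6.15% of all genes did, and leaving out either day 7 array left 3 calls. Nrp1, a semaphorin receptor that L1 associates with, rose by 1.38 log2, from 5.09 and 4.91 to 6.59 and 6.17 (adjusted p = 0.0041). The others, named to complete the count after their values were seen, were App (1.17 log2), which binds contactins, and Gdnf (0.91 log2) and its receptor Gfra1 (0.58 log2), for which Ncam1 is an alternative signalling partner. Gfra1 lost its call whichever array was left out (adjusted p = 0.0841 to 0.274), and Gdnf without either day 7 array (adjusted p = 0.0633 and 0.0725).

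Of 7 Caspr genes, whose products pair with contactins, Cntnap2 rose by 0.81 log2 (adjusted p = 0.0409, and 0.0978, 0.214 and 0.182 without day 4 replicate 1, day 7 replicate 1 and day 7 replicate 2). It was also named after its value was seen, and the other 6 had differences from -0.25 to 0.01 log2. Cntnap1, the Caspr that pairs with Cntn1, read 5.52 and 5.63 at day 4 and 5.57 and 5.60 at day 7. Of 9 ankyrin, spectrin and ERM genes, which tie L1 family tails and other surface proteins to the cell skeleton, limma called 0, with 2 (22.2%) at an unadjusted p under 0.05, against 23.1% of all genes. Their differences ran from -0.53 to 0.33 log2, and Ank3, the gene of the ankyrin G that holds neurofascin in place, read 7.91 and 7.65 at day 4 and 7.84 and 8.39 at day 7 (adjusted p = 0.443).

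**Figure D4:**
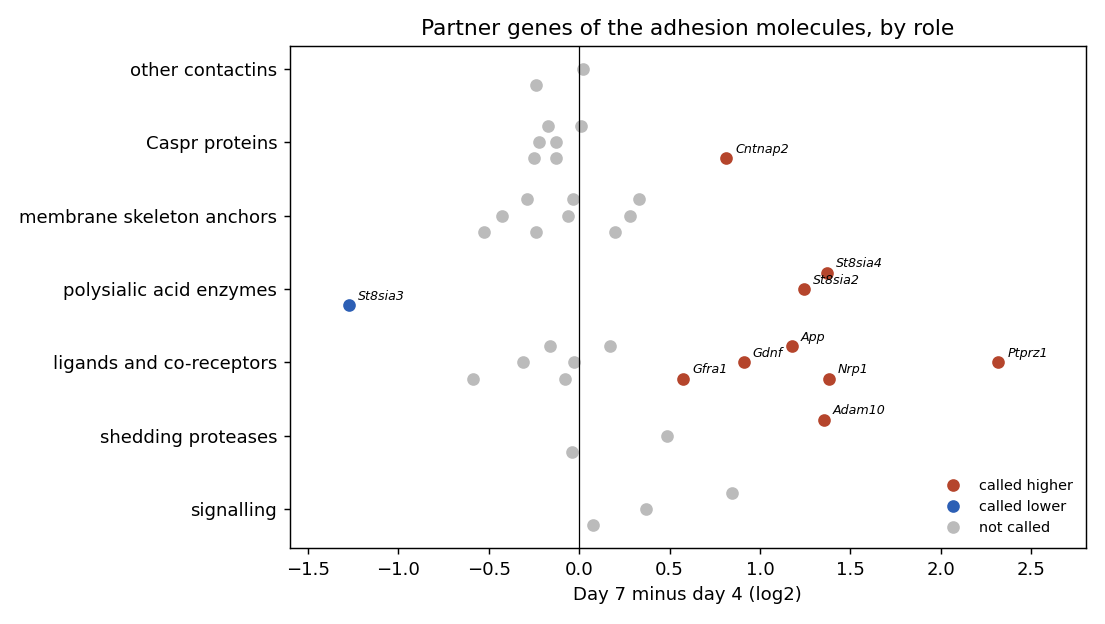
Day 7 minus day 4 difference in log2 signal of 38 partner genes, grouped by role on the vertical axis (points are spread within a row for legibility; red, called higher; blue, called lower; grey, not called). The sialyltransferases lie on both sides of 0, 5 of 11 ligand and co-receptor genes were called higher, and the 9 membrane skeleton anchors lie between -0.53 and 0.33 with 0 called.

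A second list gave 33 other immunoglobulin superfamily adhesion genes of the nervous system that were analysed here. Of these, 10 rose, 1 fell and 22 were not called (33.3% called against 10.5% of all genes), with a median difference of 0.29 log2. Leaving out day 7 replicate 1 gave 7 calls and leaving out replicate 2 gave 6. Jam2, a junctional adhesion molecule, rose by 1.75 log2, the synaptic adhesion gene Sdk2 by 1.74 and the IgLON gene Lsamp by 1.68 (0.89 as the mean of its probe sets). Kirrel and the nectin-like gene Cadm4 rose by 1.35 and 1.34 log2, and the adjusted p of Cadm4 was 0.0526 without day 7 replicate 2. The fall was that of Thy1, a lipid-anchored surface protein of neurons and stem cells, which read 7.45 and 7.96 at day 4 and 5.05 and 5.58 at day 7 (difference -2.40 log2, adjusted p = 0.00133).

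Markers of the cells moved as well, and their part in the results above was not tested. Of all genes 6.15% were called higher and 4.33% lower. Of 6 eye progenitor genes analysed here, Pax6 (3.48 log2), Lhx2 (3.15 log2) and Rax (1.51 log2) rose and the other 3 were not called. Otx2 had a difference of -0.54 log2. Six3, with a difference of 0.36, read 6.49 and 8.38 at day 4 and 7.54 and 8.06 at day 7, so its day 4 arrays lay 1.89 log2 apart. Six6 read 6.13 and 6.32 at day 4 and 7.11 and 9.33 at day 7. Of 7 neural progenitor genes 6 rose, and the log2 of their summed signal was 12.90 and 12.82 on the day 4 arrays and 14.07 and 13.98 on the day 7 arrays. Of 8 pluripotency genes 5 fell, and their sum was 13.91 and 13.74 at day 4 and 11.75 and 11.89 at day 7. The 12 neuron genes split, with Dcx, Elavl4 and Nefm higher and Ina and Stmn2 lower. Of the 12, 9 had a positive difference (75%, against 49.3% of all genes), and their median difference was 0.25 log2. Their sum was 12.20 and 12.11 at day 4 and 11.59 and 11.57 at day 7. Bright probe sets, such as that of Ina (mean 10.94 at day 4 and 8.95 at day 7), weigh most in such a sum. Of 7 genes of the neural crest, Tfap2b, Sox10, Snai2 and Twist1 rose and Foxd3 fell, and the sum of the 7 was 9.27 and 9.18 at day 4 and 10.34 and 10.30 at day 7. In the lists for other cells the calls were Olig2 (higher) of 6 glial genes, Myl7 (lower) of 8 muscle and mesoderm genes, Sox17 (higher) of 7 endoderm genes and Kdr (higher) of 6 endothelial and blood genes. These single calls are 12.5% to 16.7% of their lists, near the 10.5% of all genes called. The genes of these last 5 lists were named after their values were seen. Day 7 replicate 2 stood above replicate 1 in the summed signal of the endoderm list (11.12 against 10.57), the endothelial and blood list (9.18 against 8.59) and the eye progenitor list (12.27 against 11.89). The gap was smaller for the pluripotency (11.89 against 11.75), glial (8.13 against 8.08) and muscle lists (8.28 against 8.26). Replicate 2 stood slightly lower for the neural progenitor (13.98 against 14.07), neuron (11.57 against 11.59) and neural crest lists (10.30 against 10.34). Cntn2 also differed between these arrays, and a link to any list was not tested.

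The genes whose 4 array values, each centred on its own mean, lay nearest to those of Cntn6 were Nlgn1, a synaptic adhesion gene (distance 0.115 log2), and then Pax3, Aff2 and Zfhx4 (0.232 to 0.255). Nearest to Nfasc were St8sia3 (0.0646), Ly6e, Shb and Sntb1 (0.0857 to 0.119). These likenesses rest on 4 arrays and describe a shared size of difference more than a shared pattern.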

How the data were processed

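Per the submitters' processing notes, the authors made the log2 expression values with RMA in Partek 6.5, 1 value per probe set and array, and they were used as deposited. The settings and the genome build are not given in the sources used here. Of 41345 probe sets 23521 named 1 gene; a gene with several was represented by its brightest on average (22180 genes). Symbols of promoters and gene order came from RefSeq (GRCm38.p6). The day was the only term in limma 3.58.1 (lmFit, eBayes, R 4.3.3), with 2 residual degrees of freedom, two-sided tests and Benjamini-Hochberg adjustment over all genes at 0.05. Every adjusted p is limma's. Background left in dim signals may make their folds too small, which was not measured here, and the number of arrays limits the precision. On simulated data with 200 changed genes the fit recovered 96.9% of changes of 2 log2 and 31.6% of changes of 1. False calls made up 5.68%. More genes were called in the data (2324) than were changed in the simulation, so these rates may not hold for the data.

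The members and the lists were chosen with earlier results of these data known. Named were all members, up to 5 called genes with the largest rise and fall in each list, marker genes, and the 4 nearest genes to the members with the largest rise and fall (no predicted models or small RNAs). Outside this rule App, Gdnf, Gfra1 and Cntnap2 were named, and so were Cntn3, Ptprg, Adam17, Bace1, Cntnap1 and Ank3, which were not called. Alternatives were a replicate block, each array left out, quantile normalization, median centring, genes above the 25th or the 50th percentile of mean signal only, an intensity trend in the variance prior, also robust, no prior, the mean of probe sets, all probe sets, and limits of 0.01 and 0.1. Figures used matplotlib 3.10.9.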

Additional observations from a re-analysis of the deposited data

How the results depend on the processing

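Of 151 alternative values of the 10 adhesion genes 138 kept their direction and side of the threshold, 9 lost the call, 2 gained one and 2 turned sign. Only leaving out an array, quantile normalization or median centring could change the difference of a member. A limit of 0.01 could not add a call, and a limit of 0.1 could not remove one. Many of the 138 were thus fixed in advance, at least in direction. The sign turned for Chl1, whose difference ran from -0.094 to 0.15 log2 as each array was left out (-0.015 when that was day 7 replicate 2). With no variance prior, which leaves an ordinary t-test per gene, 3 genes were called in all (2 higher, 1 lower). These calls held 0 members higher, 0 lower, 0 partner genes and 0 other immunoglobulin superfamily genes. In that t-test 3, 1, 12 and 12 of them had an unadjusted p under 0.05. With genes above the median level 1 member was called higher, because Cntn6 and Cntn1 were not among the genes tested. With all probe sets 1070 genes (670 higher, 400 lower) and 7 other superfamily genes were called, and at a limit of 0.01 there were 1078 (675 and 403) and 7. Leaving out 1 array gave 887 to 2500 genes (573 to 1378 higher, 314 to 1122 lower), 2 to 3 members higher, 1 to 2 lower, 6 to 10 partner genes and 6 to 9 other superfamily genes. Whether samples with the same replicate number belong together is not given in the labels. Deviations of replicate 1 from the day means correlated across genes at r = 0.186, over 1 pairing. With the replicate number as a block 2770 genes were called, 3 members higher and 2 lower, the second being Cntn2 (adjusted p = 0.0361).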

Other observations

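A second probe set of the table names Ncam1 together with the predicted gene Gm11149 and was therefore outside the rule. It read 4.54 and 4.73 at day 4 and 4.66 and 4.70 at day 7, so its days overlapped, while the probe set that names Ncam1 alone rose. Which transcripts each of them reads was not tested.

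The promoter windows of the members differed in base composition. The ratio of observed to expected CpG was 0.91 for Ncam2, 0.85 for Nrcam, 0.49 for Chl1 and 0.44 for Cntn2. It was 0.67 and 0.48 in the windows of L1cam and 0.16 and 0.78 in those of Cntn4, and 0.24 for Cntn6, 0.41 for Cntn1 and 0.25 for Nfasc in the windows printed above. The median over all 14 windows of the members was 0.44, against 0.37 over 32851 windows, whose quartiles were 0.17 and 0.72.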
